A study of Mus musculus with 15 samples.

Results

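The genes followed here are 50 genes of the cell cycle and of DNA replication in mouse liver, chosen by symbol: 7 cyclins and kinases of G1, 29 genes of S phase and 14 genes of mitosis. A gene was read from the brightest of its detected probes, where a probe counts as detected with a detection p under 0.01 on at least 3 of the 15 arrays. 48 of the 50 genes had a probe matched to that gene alone, and 34 had a detected one, against 8976 such genes in all. The 34 were 6 G1 genes, 22 S phase genes and 6 mitosis genes. Of the 14 genes whose probes were detected on fewer arrays, 4 belonged to G1, origin licensing or the helicase (Ccne2, Mcm3, Cdc6 and Gins2), 4 to the fork or its chromatin (Rfc3, Pola1, Prim1 and Hells) and 6 to mitosis (Ccna2, Ccnb2, Top2a, Aurkb, Bub1 and Stmn1). Ccnb1 and Mki67 had no probe matched to 1 gene and were not analysed here.

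Liver RNA of male C57BL/6 mice, 8 weeks old, was read on Illumina bead arrays in 5 groups of 3. Acute T3 mice received 1 intraperitoneal injection of 20 µg liothyronine (T3, the active thyroid hormone) per 100 g body weight and were killed 6 h later. Chronic T3 mice had such an injection on each of 14 days, with 6 h between the last one and death. T3 withdrawal mice received the same 14 injections and were killed 10 days after the last. The animals were handled in separate subsets: baseline A is the untreated group of the acute subset, and baseline B that of the chronic and withdrawal subset. No injection is recorded for either baseline, so a T3 effect and an injection effect cannot be told apart. The labels name no animal for any array and do not mention pooling, so the errors measure the spread between samples.

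Before a cell divides, D and E type cyclins with their kinases release E2F transcription factors from RB, and E2F then turns on the genes for origin licensing, nucleotide supply and the replication fork. Genes for mitosis follow later in the cycle and many of them carry a short promoter element named CHR, which is bound by the DREAM and MuvB complexes. Adult hepatocytes rarely divide, and T3 is known as a mitogen of rodent liver that raises cyclin D1. In RNA of whole tissue, more dividing cells and more RNA per cell cannot be told apart.

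Promoters from RefSeq (mouse build GRCm38.p6, 250 bases before to 50 after each annotated start) were present for 40 of the 50 genes. They were searched on both strands for TTTGGCGC, TTTCCCGC, TTTCGCGC and TTTGCCGC, counted as 1 E2F motif, and for TTTGAA, the CHR motif. The E2F words can overlap each other, since they share their last bases with each other's reverse complement, and none overlaps CHR. Over all 32851 promoters, 2.26% held an E2F word and 17.9% held CHR. Counted by gene, E2F was found for 12 of 25 S phase genes, 1 of 11 mitosis genes and 704 of 27025 genes in all (48, 9.09 and 2.60%). CHR was found for 3 of 25 S phase genes, 8 of 11 mitosis genes and 5466 of 27025 genes in all (12, 72.7 and 20.2%). A match describes letters in the window and is not a measured binding site.

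The following promoters are shown as examples of the patterns among genes called after chronic T3: Mcm5 and Mcm6 hold E2F words, Cdk1 holds an E2F word and CHR, and Mcm10, the gene that moved against the others, holds neither in full. The Mcm10 window ends in all but the last letter of TTTGGCGC, so a word across that edge would not be counted. Of 13 genes that rose and had a promoter, 6 held E2F and 6 held CHR. Among 16 tested genes that did not rise, 3 held E2F and 2 held CHR. Whether a missing word goes with the direction of a gene was not tested. Sequences run 5′ to 3′ on the strand of the gene, and capitals mark the motif letters.
Mcm5: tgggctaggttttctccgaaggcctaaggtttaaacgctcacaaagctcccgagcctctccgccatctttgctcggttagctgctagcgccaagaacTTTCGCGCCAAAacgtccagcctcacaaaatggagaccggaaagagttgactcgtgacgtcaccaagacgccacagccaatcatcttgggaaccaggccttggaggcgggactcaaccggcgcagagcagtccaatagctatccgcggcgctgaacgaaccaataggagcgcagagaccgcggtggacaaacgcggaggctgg
Mcm6: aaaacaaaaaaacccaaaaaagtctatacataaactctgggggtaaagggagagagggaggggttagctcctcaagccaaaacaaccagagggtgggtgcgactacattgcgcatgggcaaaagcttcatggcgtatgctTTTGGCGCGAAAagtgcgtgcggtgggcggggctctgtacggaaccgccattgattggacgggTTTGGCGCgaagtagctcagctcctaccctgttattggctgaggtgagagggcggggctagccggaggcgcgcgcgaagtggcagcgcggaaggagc
Cdk1: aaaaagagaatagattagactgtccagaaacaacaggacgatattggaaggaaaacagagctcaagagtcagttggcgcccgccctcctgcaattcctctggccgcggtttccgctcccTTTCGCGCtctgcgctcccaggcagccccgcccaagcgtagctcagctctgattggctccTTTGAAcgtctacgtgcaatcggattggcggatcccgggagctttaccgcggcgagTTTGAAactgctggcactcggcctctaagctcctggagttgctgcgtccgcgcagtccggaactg
Mcm10: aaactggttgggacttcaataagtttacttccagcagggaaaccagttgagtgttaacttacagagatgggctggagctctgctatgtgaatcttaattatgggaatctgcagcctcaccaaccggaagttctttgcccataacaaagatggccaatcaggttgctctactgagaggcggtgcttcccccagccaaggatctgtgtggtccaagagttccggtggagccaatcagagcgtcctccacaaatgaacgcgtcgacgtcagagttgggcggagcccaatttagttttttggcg
Mcm5 is read from chr8:75109259-75109558 on the plus strand, and its overlapping E2F words begin 153 and 149 bases before the start. Mcm6 (chr1:128359656-128359955, minus strand) holds 3 words, which begin 110, 106 and 47 bases before the start. Cdk1 (chr10:69352863-69353162, minus strand) holds its E2F word 131 bases and CHR 71 and 15 bases before the start. Mcm10 is read from chr2:5012742-5013041 on the minus strand.

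**Figure D1:**
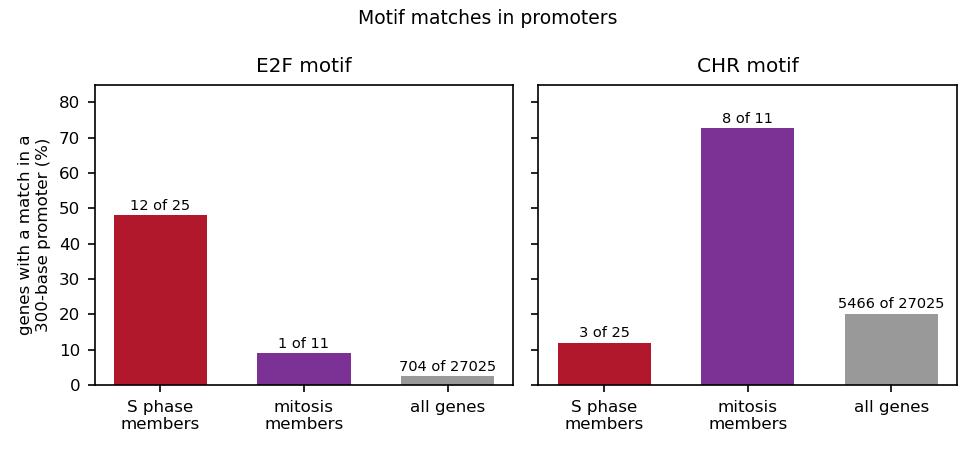
Share of genes (%) whose 300-base promoters hold an E2F word (left) or CHR (right), for S phase genes, mitosis genes and all genes. Bars start at 0 and carry the count of genes. The E2F words stand at 48% of S phase genes against 2.60% of all genes, and CHR at 72.7% of mitosis genes against 20.2%.

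Levels are log2 intensities after background correction and quantile normalization, and a difference is a difference of group means of these levels ± its moderated standard error, with 3 arrays in each group. A gene rose or fell if its adjusted p was under 0.05 in a fit of all 15 arrays by limma, adjusted by Benjamini-Hochberg over all 8976 genes. 18 of the 34 genes were detected on all 15 arrays, but none of the 6 mitosis genes was. All 34 also met the detection rule without the chronic T3 arrays, as did 97.9% of all genes tested. Where a group had no array on which the gene was detected, the gene has only a bound there. The fold is then given as at least that over a floor. On each array the floor is the lowest signal among detected probes or the gene's own value, whichever is higher. The mean of the higher group takes in all its arrays. Where the gene was undetected on some of those, the fold over the floor is no strict bound. Of the whole series, the mean signal per array ran from 435 to 697, with the lowest values in chronic T3 replicates 2 and 3 (438 and 435). The 10 hepatocyte markers listed were all measured, with summed linear levels of 206307 to 215184 after chronic T3 and 209624 to 215246 in baseline B. Within that sum 3 of the 10 fell after chronic T3 (lowest value -1.47), where 10.5% of all genes tested fell. After withdrawal against chronic T3, 3 rose (highest value 1.58), where 8.82% of all genes tested rose.

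**Figure D2:**
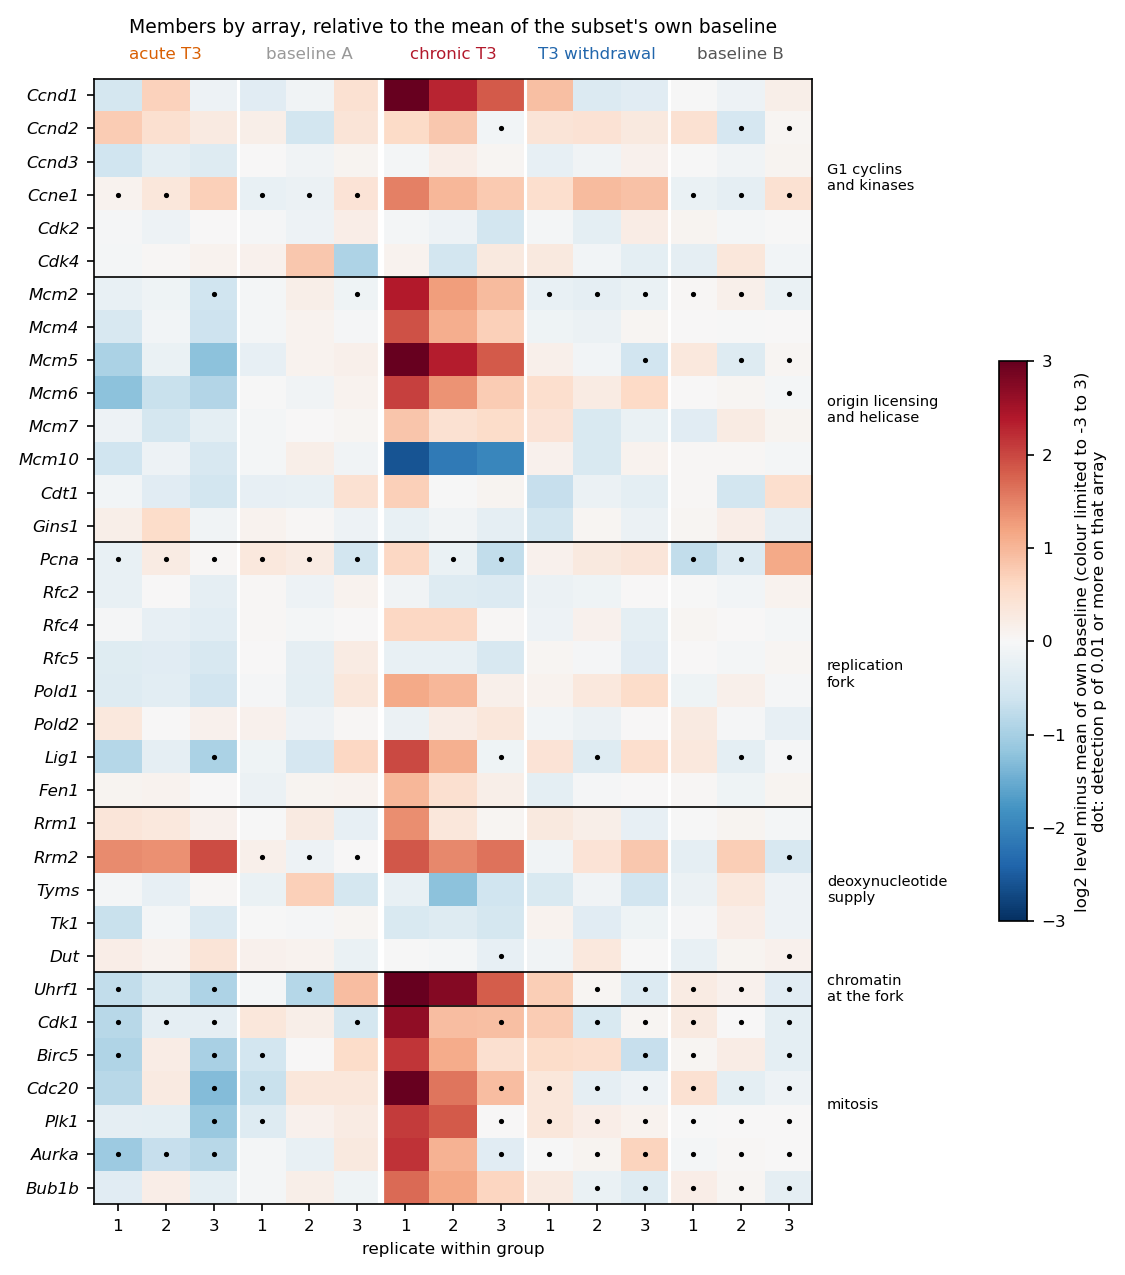
Heat map of the 34 genes (rows, grouped by role) on the 15 arrays (columns), as log2 level minus the mean of the baseline of the same subset. Dots mark arrays with a detection p of 0.01 or more. The chronic T3 columns carry the strong colours, with Mcm10 the only row in deep blue, and replicate 1 is the darkest of them.

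Chronic T3 was set against baseline B to ask what repeated dosing does to liver gene expression. Genes for the replicative helicase, cyclins D1 and E1, the small subunit of ribonucleotide reductase, Uhrf1 and 4 mitosis genes rose, and Mcm10 fell. Of the 34 genes, 15 rose and 1 fell, where 12.4% of all genes tested rose and 10.5% fell. The median difference was 0.61 over the 34 genes and 0.03 over all genes tested. At an unadjusted p under 0.05 stood 25 of the 34 (73.5%) and 35.2% of all genes.

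Among the G1 genes, Ccnd1 and Ccne1 rose and 4 of 6 did not pass. Ccnd1, cyclin D1, which opens the G1 phase with Cdk4 or Cdk6, had log2 levels of 13.60, 12.74 and 12.29 on the chronic T3 arrays, of 11.35, 10.05 and 10.12 after withdrawal, and of 10.44, 10.30 and 10.62 in baseline B. Every chronic T3 array lay above every other array of its subset. The difference from baseline B was 2.42 ± 0.41 (5.36-fold; adjusted p = 0.00130). Ccne1, cyclin E1, which drives entry into S phase with Cdk2, had levels of 7.24, 6.73 and 6.52 after chronic T3 and was detected on no baseline B array (5.54, 5.46 and 6.18). It was at least 1.30-fold higher (adjusted p = 0.00804). The other D cyclins and the kinases had smaller values: 0.42 ± 0.29 for Ccnd2, 0.06 ± 0.13 for Ccnd3, -0.26 ± 0.16 for Cdk2 and -0.05 ± 0.35 for Cdk4.

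Helicase genes were 5 of the 15 that rose. Mcm2, Mcm4, Mcm5, Mcm6 and Mcm7 encode 5 of the subunits of the ring that unwinds DNA, and all 5 rose. Mcm5 had levels of 9.46, 8.83 and 8.32 after chronic T3, against 6.80, 6.10 and 6.53 in baseline B, with detection on 1 of the 3 baseline arrays. The groups lay far apart, with a difference of 2.39 ± 0.32 (5.25-fold; adjusted p = 0.000234). Mcm2 had 7.97, 6.84 and 6.54 after chronic T3 and was detected on no baseline B array (5.62, 5.75 and 5.40), which gives at least 1.59-fold (adjusted p = 0.00204). Mcm4 had 10.40, 9.58 and 9.20 after chronic T3 and 8.51, 8.47 and 8.51 in baseline B (1.24 ± 0.24; adjusted p = 0.00276). For Mcm2 and Mcm4 too no array of one group reached into the other. Mcm6 had 8.61, 7.90 and 7.31 after chronic T3 and 6.57, 6.61 and 6.51 in baseline B (1.38 ± 0.25; adjusted p = 0.00210). Mcm7 had 7.79, 7.41 and 7.52 after chronic T3 and 6.62, 7.20 and 7.05 in baseline B, a small change just inside the threshold (0.62 ± 0.21; adjusted p = 0.0496). Mcm3, which encodes another subunit of the ring, was detected on 2 chronic T3 arrays and on no other.

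Mcm10, which binds the helicase at origins as it is activated, went the other way. Its probes are assigned to Mcm10 by the platform's probe table, and that assignment was not checked against a genome here. Its baseline B mean (13.19) was the highest of the 34 genes, with Rfc2 next (10.64), while Mcm2, Uhrf1 and Cdk1 were undetected there. Whether the signal comes from Mcm10 RNA was not tested. Its levels were 10.59, 11.06 and 11.23 after chronic T3, 13.32, 12.73 and 13.29 after withdrawal, and 13.22, 13.22 and 13.14 in baseline B. The chronic T3 arrays were all below all 12 other arrays, and the difference was -2.23 ± 0.19 (4.70-fold lower; adjusted p = 7.87e-06). Of all 34 genes it had the smallest adjusted p. A dimmer probe of Mcm10 gave -2.30 (adjusted p = 0.000463 with every probe tested). Of the loading factors, Cdt1, which brings the ring to origins, had a value of 0.26 ± 0.28 and Gins1, of the GINS complex in the active helicase, -0.20 ± 0.19; neither passed.

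At the fork itself 2 of 8 genes rose. Pold1, the catalytic subunit of DNA polymerase delta, had levels of 8.06, 7.93 and 7.08 after chronic T3 and 6.79, 7.09 and 6.90 in baseline B (0.76 ± 0.23; adjusted p = 0.0334). Fen1, the nuclease that trims Okazaki fragments, had 8.96, 8.46 and 8.15 after chronic T3 and 8.00, 7.84 and 8.06 in baseline B (0.55 ± 0.17; adjusted p = 0.0370). In both genes replicate 3 of chronic T3 lay close to the baseline arrays. Pcna, the sliding clamp and a common marker of proliferation, had 6.68, 5.86 and 5.31 after chronic T3 and 5.33, 5.65 and 7.19 in baseline B, with detection on 1 array of each group. Its groups overlapped (-0.10 ± 0.43; adjusted p = 0.884). The clamp loader genes had -0.31 ± 0.13 (Rfc2), 0.42 ± 0.16 (Rfc4) and -0.31 ± 0.14 (Rfc5), and Pold2 and the ligase Lig1 had 0.13 ± 0.16 and 0.97 ± 0.45, none of which passed. Dimmer probes of Rfc2 gave -0.06, -0.03 and -0.37 (adjusted p 0.586 to 0.883 with every probe tested). Positive and negative values thus stood side by side within the fork machinery.

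Of the genes that supply deoxynucleotides, Rrm2 alone of 5 rose. Rrm2 encodes the small subunit of ribonucleotide reductase, whose level changes with the cell cycle. It had levels of 8.61, 8.18 and 8.38 after chronic T3, 6.64, 7.15 and 7.55 after withdrawal, and 6.48, 7.47 and 6.26 in baseline B (1.66 ± 0.30; 3.15-fold; adjusted p = 0.00187). The large subunit Rrm1 had a value of 0.60 ± 0.27 (adjusted p = 0.136), although its dimmer probe gave 0.86 (adjusted p = 0.0397 with every probe tested). Tyms, thymidylate synthase, and Tk1, thymidine kinase, had negative values that did not pass (-0.69 ± 0.30 and -0.46 ± 0.16; adjusted p = 0.120 and 0.0509), and Dut, which removes dUTP, had -0.10 ± 0.15.

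Uhrf1 guides maintenance methylation of DNA behind the fork. Its levels were 8.92, 8.34 and 7.39 after chronic T3, and it was detected on no baseline B array (5.82, 5.70 and 5.23). It was at least 3.4-fold higher (adjusted p = 0.00130), the largest such bound among the 34 genes. After withdrawal it had 6.31, 5.65 and 5.18.

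All 6 mitosis genes measured had positive values after chronic T3, from 0.95 to 2.15, and 4 rose. Cdc20, which activates the anaphase promoting complex, had levels of 8.96, 6.64 and 5.96 after chronic T3 and 5.49, 4.74 and 4.89 in baseline B, where it was detected on no array. Its chronic T3 mean lay 1.66-fold above the floor (adjusted p = 0.0256). That is no strict bound, since it was not detected on chronic T3 replicate 3 either. Chronic T3 replicate 1 stood far above the other arrays. Dimmer probes of Cdc20 gave 1.12 and 0.93 and did not pass (adjusted p = 0.0768 and 0.231 with every probe tested). Cdk1, the mitotic kinase, had 8.17, 6.44 and 6.43 after chronic T3 and 5.80, 5.54 and 5.22 in baseline B, again with no detection there. It too was undetected on chronic T3 replicate 3, and its mean lay 1.48-fold above the floor (adjusted p = 0.0263). Bub1b, of the spindle checkpoint, had 7.51, 6.97 and 6.45 after chronic T3 and 6.00, 5.87 and 5.54 in baseline B, below detection (at least 1.44-fold; adjusted p = 0.00563). Its spread was smaller than that of Cdc20 or Cdk1, but a dimmer probe of Bub1b gave 0.05 (adjusted p = 0.937 with every probe tested). Plk1, a kinase of the spindle poles, ran from 5.43 to 7.51 after chronic T3 and from 5.39 to 5.42 in baseline B. It was detected on no baseline B array and not on chronic T3 replicate 3, which had the 5.43. Its chronic T3 mean lay 1.22-fold above the floor (adjusted p = 0.0366), again no strict bound. Birc5 (survivin) and Aurka (aurora kinase A) had 1.25 ± 0.46 and 0.95 ± 0.44 and did not pass (adjusted p = 0.0687 and 0.139).

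Set side by side, the median difference after chronic T3 was 1.29 over the 6 mitosis genes and 0.49 over the 22 S phase genes, of which 9 rose and Mcm10 fell. Of the 6 mitosis genes all but Birc5 were detected on no baseline B array, so their median rests on fitted values and is no bound. The mitosis genes measured are fewer, dimmer and less often detected than the S phase genes, and the difference between the medians has no test. With no filter on dim probes, 48 genes were tested and 16 were called, a count given without the share over all genes of that fit. Among the 16 called were Top2a, Mcm3, Aurkb and Stmn1, which were detected on 1 or 2 chronic T3 arrays and on no array of another group. Their differences are not given, since the other arrays hold only a bound.

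**Figure D3:**
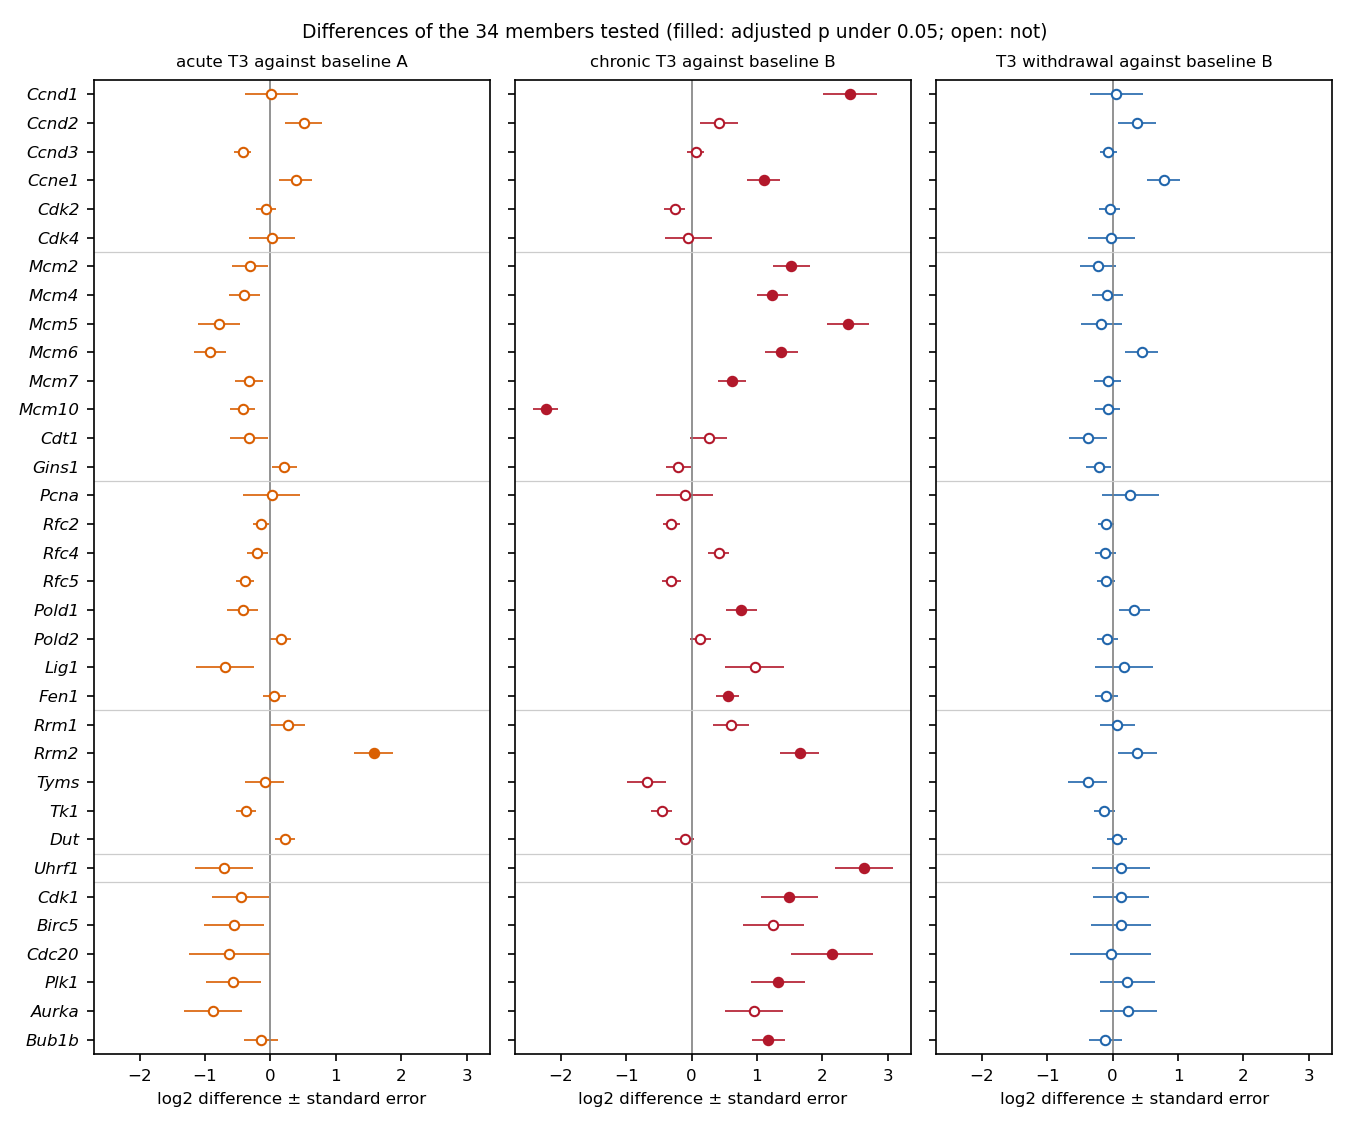
Log2 difference ± standard error of the 34 genes (rows, by role) after acute T3, after chronic T3 and after withdrawal, each against the untreated group of its subset; filled points have an adjusted p under 0.05. Filled points number 1, 16 and 0.

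The 3 chronic T3 arrays were not alike in these genes. All 15 genes that rose were highest on replicate 1, against 45.5% of the 1111 genes that rose in all, and 13 of them were lowest on replicate 3, against 55.8%. The median over S phase genes, relative to baseline B, was 0.78, 0.40 and 0.07 on replicates 1, 2 and 3, and that over mitosis genes 2.15, 1.14 and 0.57. Of the 34 genes, 34, 33 and 26 were detected on these arrays, against 24, 22 and 19 in baseline B. Without chronic T3 replicate 1, 9 genes rose and 2 fell. Ccnd1, Ccne1, Mcm2, Mcm4, Mcm5, Mcm6, Rrm2, Uhrf1 and Bub1b still rose, Mcm10 still fell and Rfc2 was called lower by its brightest probe (-0.41). Mcm7, Pold1, Fen1, Cdk1, Cdc20 and Plk1 then did not pass (adjusted p 0.0674 to 0.155), and the S phase and mitosis medians were 0.30 and 0.91. In that order their differences were 0.51, 0.58, 0.34, 0.92, 1.26 and 0.94 without it, against 0.62, 0.76, 0.55, 1.49, 2.15 and 1.33 with it. For Fen1, Cdk1 and Cdc20 no other array left out moved the value as far. Calls were also lost without other arrays. With each of the 6 arrays compared left out in turn, Mcm7, Fen1 and Plk1 lost their calls without 5, Pold1 without 4, and Cdk1 and Cdc20 without 3. Without chronic T3 replicate 3, 20 genes were called, and without baseline B replicate 3, 10. Counts in this and the other refits are of the followed genes alone. They stand without the share over all genes of the same fit, so a shift in them may not be particular to these genes.

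Markers of other cells moved on the same arrays. Of the 15 macrophage and Kupffer cell markers listed, 13 were measured and 12 rose after chronic T3, where 12.4% of all genes tested rose. Their summed linear level was 28583, 23801 and 16974 on chronic T3 replicates 1, 2 and 3, against 6694 to 9574 in baseline B, and so was highest on the array where the cell cycle genes were highest. It was 6389 to 7088 after withdrawal, 5972 to 7362 after acute T3 and 6679 to 8175 in baseline A. Cd5l, another marker, was detected on no array. The erythroid sum was 33449 to 52818 after chronic T3 and 21021 to 38861 in baseline B, with overlap, while Gata1 and Epor were detected on no array. Of the 5 erythroid markers measured 0 rose and 1 fell. Of the 10 markers of T, NK and B cells 2 were measured and neither passed, and Cd3e, Cd4, Cd8a and Ms4a1 were detected on no array. Of 9 endothelial markers measured 4 rose (sum 11494 to 13991 after chronic T3 and 10246 to 12188 in baseline B). Of 7 bile duct markers 2 were measured and 1 rose (sum 1862 to 2364 after chronic T3 and 1297 to 1746 in baseline B), both fell in baseline B against baseline A, and Epcam and Cldn4 were detected on no array. The part of these cells in the cell cycle result was not tested.

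**Figure D4:**
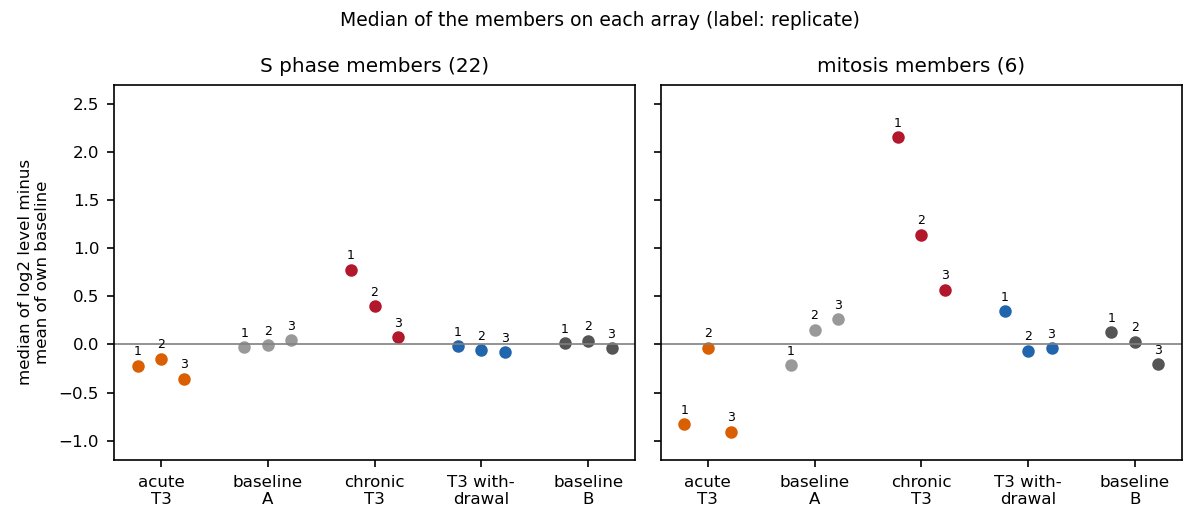
Median over the S phase genes (left) and mitosis genes (right) of the log2 level minus the mean of the subset's own baseline, 1 point for each array, labelled by replicate. The chronic T3 points spread from 0.07 to 0.78 for S phase genes and from 0.57 to 2.15 for mitosis genes, and replicate 1 is the highest in both panels.

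Acute T3 was set against baseline A to ask what 1 dose changes within hours. Rrm2 rose and none of the other 33 genes passed, where 1.47% of all genes tested rose and 0.646% fell. Rrm2 had levels of 6.75, 6.69 and 7.29 after acute T3, against 5.48, 5.18 and 5.33 in baseline A, where it was detected on no array. It was at least 1.87-fold higher (1.58 ± 0.30; adjusted p = 0.0169), and the groups did not overlap. Its dimmer probe gave 1.03 (adjusted p = 0.363 with every probe tested). Ccnd1, which rose after chronic T3, had 9.98, 11.20 and 10.35 after acute T3 and 10.15, 10.39 and 10.96 in baseline A, with overlapping groups (0.01 ± 0.41; adjusted p = 0.992).

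After acute T3, 11 of the 34 values lay above 0, and all 6 mitosis genes lay below it. All 6 also lay below 0 in baseline B against baseline A (median -0.65), a comparison that shares the baseline A arrays. The median was -0.32 over the 22 S phase genes and -0.56 over the 6 mitosis genes, against -0.0026 over all genes tested, and 7 of 34 genes (20.6%; 14.7% of all genes) had an unadjusted p under 0.05. Mcm6 had levels of 6.32, 6.89 and 6.66 after acute T3 and 7.54, 7.44 and 7.66 in baseline A, without overlap, and did not pass (-0.92 ± 0.25; adjusted p = 0.0802). Mcm5 had 6.37, 7.12 and 6.10 after acute T3 and 7.07, 7.42 and 7.48 in baseline A (-0.79 ± 0.32; adjusted p = 0.252). Mcm2 (5.92, 6.02 and 5.56, against 6.09, 6.33 and 6.01 in baseline A), Mcm4 (8.41, 8.81 and 8.26, against 8.82, 9.0 and 8.86) and Mcm10 (12.48, 12.92 and 12.59, against 13.01, 13.26 and 12.98) had values of -0.32, -0.40 and -0.42. Uhrf1 was detected on 1 of 3 acute T3 arrays and 2 of 3 baseline A arrays (5.54, 5.83 and 5.36, against 6.21, 5.43 and 7.21). The call of Rrm2 was lost without baseline A replicate 1 or 2 or acute T3 replicate 1 or 3 (adjusted p 0.0581 to 0.0857).

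**Figure D5:**
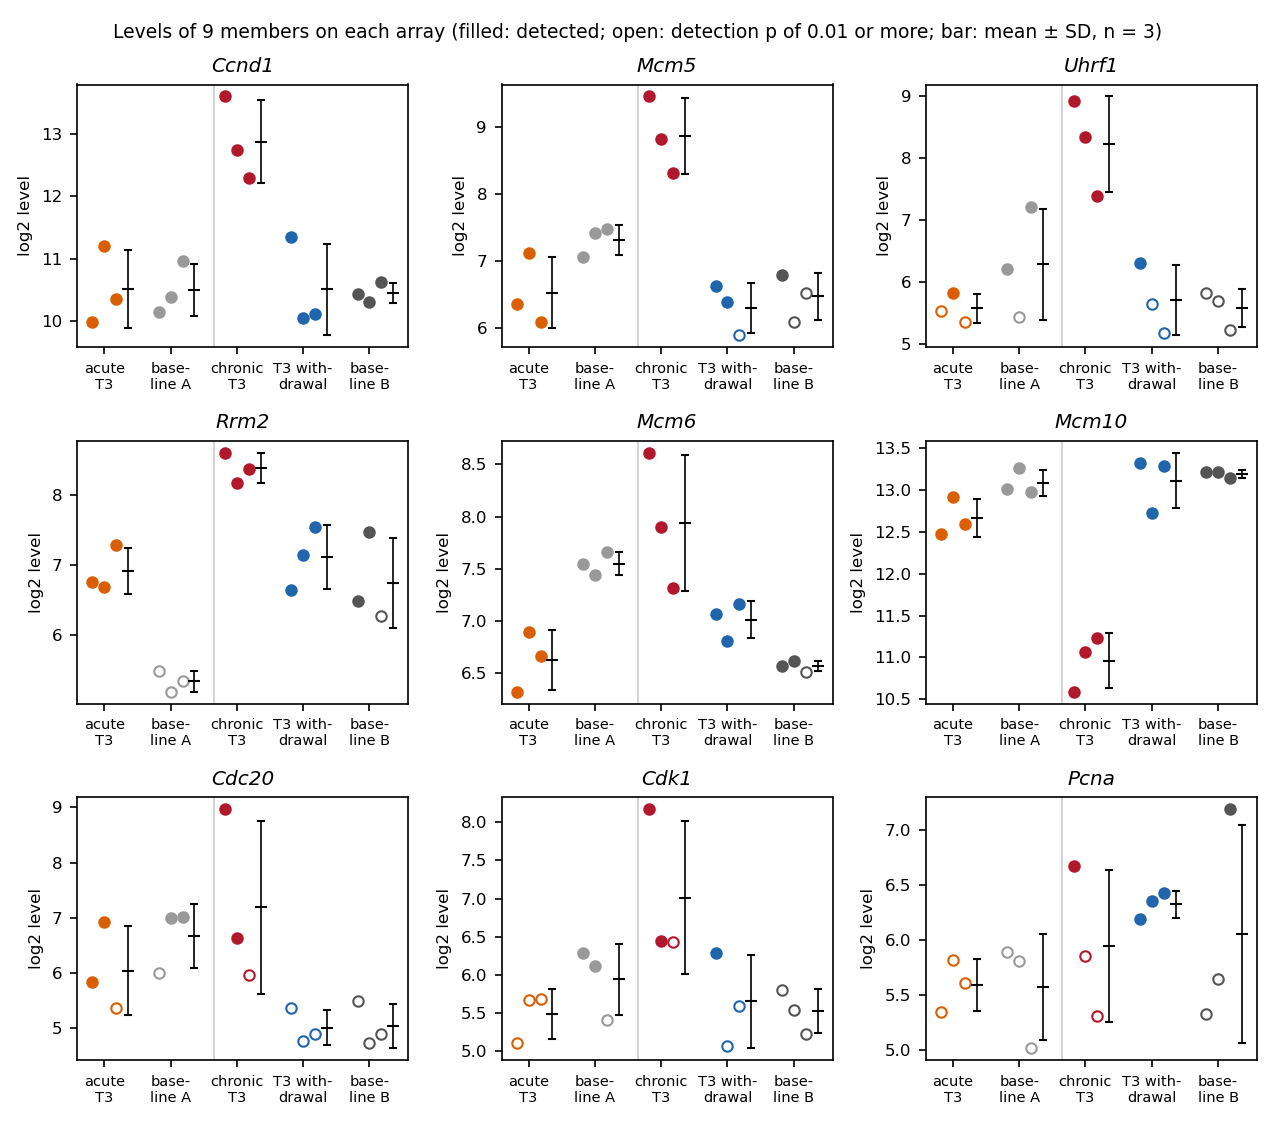
Log2 levels of 9 genes on each array by group, filled where the gene was detected; bars at the right of each group are mean ± SD (n = 3). Ccnd1, Mcm5 and Uhrf1 are highest on the 3 chronic T3 arrays, Rrm2 is also above baseline A after acute T3, Mcm10 is low on the chronic T3 arrays, and the chronic T3 and baseline B arrays of Pcna overlap.

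T3 withdrawal against baseline B gave 0 calls among the 34 genes by limma, where 0.0111% of all genes rose and 0% fell. 1 of the 34 (2.94%; 7.38% of all genes) had an unadjusted p under 0.05. That gene was Ccne1, with levels of 6.24, 6.68 and 6.6 after withdrawal and detection on all 3 of those arrays, against 5.54, 5.46 and 6.18 and no detection in baseline B (0.78 ± 0.25; adjusted p = 0.512). The medians were -0.08 for S phase genes and 0.13 for mitosis genes, and 0.03 for all genes tested. The values ran from -0.38 (Tyms) to 0.78 (Ccne1).

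T3 withdrawal against chronic T3 asks which levels change once T3 is stopped. It shares the chronic T3 arrays with the chronic comparison, so the same arrays set both sets of values. Of the 34 genes 13 fell and Mcm10 rose, where 8.31% of all genes tested fell and 8.82% rose. Mcm5 had levels of 6.63, 6.39 and 5.90 after withdrawal, below all chronic T3 arrays (-2.57 ± 0.32; 5.92-fold lower; adjusted p = 0.000175). Mcm2 was detected on no withdrawal array (5.37, 5.32 and 5.40; at least 1.99-fold lower; adjusted p = 0.00103). Ccnd1 fell by 2.37 ± 0.41 and Uhrf1 had a difference of -2.50 ± 0.44, and Mcm10 rose by 2.15 ± 0.19 (adjusted p = 0.00183, 0.00215 and 1.36e-05). Mcm4 (8.36, 8.32 and 8.55 after withdrawal) fell by 1.32 ± 0.24 and Bub1b (6.06, 5.59 and 5.42) by 1.29 ± 0.25, while Rrm2 fell by 1.28 ± 0.30 (adjusted p 0.00235 to 0.0105). The dimmer probe of Bub1b gave -0.48 here (adjusted p = 0.464 with every probe tested).

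Smaller falls, or falls with more spread, were called for 6 other genes. Mcm6 (7.06, 6.81 and 7.16 after withdrawal) fell by 0.93 ± 0.25 and Mcm7 (7.37, 6.51 and 6.75) by 0.69 ± 0.21. Fen1 (7.68, 7.93 and 7.98) fell by 0.65 ± 0.17. Rfc4, of the clamp loader, had 7.06, 7.33 and 6.92 after withdrawal, against 7.83, 7.82 and 7.24 after chronic T3 (-0.53 ± 0.16; adjusted p = 0.0377), with 1 withdrawal array above the lowest chronic T3 array. Cdc20 was detected on no withdrawal array (5.37, 4.77 and 4.89). Its chronic T3 mean, with replicate 3 undetected, lay 2.08-fold above the floor (adjusted p = 0.0287). Cdk1 had 6.29, 5.07 and 5.59 (-1.36 ± 0.43, adjusted p = 0.0464). Without chronic T3 replicate 1, 7 genes fell and Mcm10 rose, and Mcm6, Mcm7, Rfc4, Fen1, Cdk1 and Cdc20 did not pass. Pold1 (7.04, 7.25 and 7.48 after withdrawal) and Plk1 rose after chronic T3 but had values of -0.43 ± 0.23 and -1.10 ± 0.42 here and did not pass. Ccne1 likewise had -0.32 ± 0.25.

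The chronic effect minus the acute effect tests whether both treatments moved a gene alike. It draws on both baselines and so also holds any difference between the subsets. 8 of the 34 genes had a higher chronic effect and 1, Mcm10, a lower one, where 3.82 and 3.32% of all genes tested did. The differences were 3.34 ± 0.63 for Uhrf1, 3.18 ± 0.45 for Mcm5, 2.41 ± 0.58 for Ccnd1, 2.30 ± 0.35 for Mcm6, 1.84 ± 0.39 for Mcm2 and 1.64 ± 0.33 for Mcm4 (adjusted p 0.00157 to 0.0264). Bub1b and Pold1 had 1.32 ± 0.36 and 1.19 ± 0.33 (adjusted p = 0.0435 and 0.0483), and Mcm10 had -1.81 ± 0.27. The dimmer probe of Bub1b gave 0.52 (adjusted p = 0.629 with every probe tested). Uhrf1, Mcm2 and Bub1b were detected on no baseline B array, so their values here are fitted against signals not above background and give no exact size. Rrm2 had a difference of 0.08 ± 0.42 and did not pass (adjusted p = 0.939). Rrm2 was detected on no baseline A array, so its acute effect is only a bound and its value here gives no exact size. Its dimmer probe gave 0.87 (adjusted p = 0.501 with every probe tested), so equal effects were not shown. The median was 1.86 over mitosis genes, of which 1 of 6 passed, and 0.42 over S phase genes, of which 6 were higher and 1 lower. Without chronic T3 replicate 3 the count was 16 genes.

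The untreated groups also differed. In baseline B against baseline A, Rrm2 rose, and Mcm6 and Pold1 fell, where 2.73% of all genes tested rose and 5.98% fell. Rrm2 had 6.48, 7.47 and 6.26 in baseline B and was detected on none of the baseline A arrays (5.48, 5.18 and 5.33). The difference was 1.40 ± 0.30 (adjusted p = 0.0161). Its baseline B mean lay 1.66-fold above the floor, which is no strict bound, since baseline B replicate 3 was undetected. Mcm6 had 6.57, 6.61 and 6.51 in baseline B and 7.54, 7.44 and 7.66 in baseline A (-0.98 ± 0.25; adjusted p = 0.0312). Pold1 had 6.79, 7.09 and 6.90 in baseline B and 7.79, 7.53 and 8.17 in baseline A (-0.90 ± 0.23; adjusted p = 0.0339). This comparison shares the baseline A arrays with the acute one, where Rrm2, Mcm6 and Pold1 had values of 1.58, -0.92 and -0.42. Between the baselines, Mcm2, Mcm4, Mcm5 and Mcm7 had -0.56, -0.40, -0.84 and -0.70 and did not pass. Of 8 licensing and helicase genes 3 lay above 0 (median -0.48). Chronic T3 means of Mcm7 and Pold1 (7.57 and 7.69) lay below those of baseline A (7.65 and 7.83), while those of Mcm2, Mcm4, Mcm5 and Mcm6 lay above. With the replicate number as a block over all 15 arrays 2 of the 3 calls held and Pold1 did not pass (adjusted p = 0.0556), and with the block in a fit of the 6 baseline arrays alone the count was 0 (adjusted p 0.0571 to 0.0861). It was also 0 without baseline A replicate 1 or 3, 1 without any of the baseline B arrays and 5 without baseline A replicate 2.

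The inhibitors of the cell cycle kinases were read from a list of 13 such genes and p53 targets, of which 9 were measured. Cdkn1a, the inhibitor p21, had levels of 9.0, 8.66 and 8.71 after chronic T3, 5.74, 5.04 and 5.43 after withdrawal and 5.38, 5.53 and 5.30 in baseline B, where it was detected on no array. It was at least 5.05-fold higher after chronic T3 than in baseline B (adjusted p = 1.15e-06) and at least 6.32-fold lower after withdrawal than after chronic T3. In the acute subset it had 6.03, 6.06 and 5.85 after acute T3, against 7.98, 7.62 and 8.56 in baseline A (-2.07 ± 0.22; adjusted p = 0.000561). It was also at least 3.04-fold lower in baseline B than in baseline A (adjusted p = 0.000162), and its baseline A level is the one its acute fall is set against. Cdkn2c (p18) and Mdm2, which targets p53 for degradation, rose after chronic T3 by 0.64 ± 0.18 and 0.47 ± 0.14, and Cdkn1c (p57) fell by 0.73 ± 0.21. In all, 3 of 9 rose and 1 fell, where 12.4% of all genes tested rose and 10.5% fell.

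Of 21 transcription factors of the E2F and RB network, 10 were measured. After chronic T3 E2f6, a repressor among the E2F factors, rose by 0.35 ± 0.10 and E2f5 fell by 0.42 ± 0.14 (adjusted p = 0.0296 and 0.0458). E2f1, an activator of S phase genes, had 7.84, 7.46 and 7.07 after chronic T3 and 7.44, 7.16 and 7.24 in baseline B and did not pass (0.18 ± 0.16), and it was called lower after withdrawal than after chronic T3 (-0.50 ± 0.16; adjusted p = 0.0482).

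Of 38 other replication genes 25 were measured, and 2 rose and 2 fell after chronic T3, with a median of 0.07. Of all genes tested 12.4% rose and 10.5% fell there. Timeless, which protects the fork, had 7.69, 6.99 and 7.18 after chronic T3 and was detected on no baseline B array (5.16, 5.60 and 4.94; at least 1.79-fold; adjusted p = 0.000326). Chaf1b, of the chromatin assembly factor at the fork, rose by 0.89 ± 0.29, and Gins4 and Rnaseh2a fell by 0.42 ± 0.11 and 0.45 ± 0.12. After withdrawal, compared with chronic T3, 4 of the 25 rose and 3 fell, where 8.82% of all genes tested rose and 8.31% fell. Timeless and Chaf1a fell there, and Rnaseh2a and Orc5, of the origin recognition complex, rose.

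Of 48 other mitosis genes 18 were measured, of which 4 rose and 1 fell after chronic T3, with a median of 0.45. Of all genes tested 12.4% rose and 10.5% fell there. Prc1, which bundles the microtubules of the central spindle, had 9.09, 7.60 and 6.36 after chronic T3 and 6.06, 5.44 and 5.45 in baseline B, where it was detected on no array. Its chronic T3 mean lay 2.35-fold above the floor (adjusted p = 0.0106). Anln, which acts in cytokinesis, was at least 1.36-fold higher (adjusted p = 0.00378). Nusap1, which acts on spindle microtubules, lay 1.10-fold above the floor (adjusted p = 0.00690). Prc1 and Nusap1 were detected on 2 of the 3 chronic T3 arrays, so their folds are no strict bounds. The fourth gene was Pbk, a mitotic kinase. Pttg1, securin, was the gene called lower, but it was detected on 1 baseline B array and on no chronic T3 array, and no size of a fall could be bounded. After withdrawal 6 of the 18 fell against chronic T3, among them Nusap1, Anln, Pbk and Prc1, where 8.31% of all genes tested fell. In the difference of the chronic and acute effects 4 of the 18 were higher, where 3.82% of all genes tested were. They were Prc1 (3.22 ± 0.70), Pbk (2.82 ± 0.75), Nusap1 and Anln. None of these 4 was detected in baseline B, so the values are fitted against signals not above background.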

How the data were processed

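Liver RNA was hybridised to Illumina bead arrays of 45281 probes, 1 array for each of 15 samples. Per the file headers and values, the deposited intensity of a probe is a linear signal not normalized between arrays, with a detection p-value. A second deposited table gives linear intensity after quantile normalization by the authors, as its match to the signals showed, and served as an alternative. Partek 6.6 is named in the submitters' processing notes with no step assigned to it.

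The function neqc (limma 3.58.1, R 4.3.3, offset 16) removed background, using the detection p-values in place of control probes, then applied quantile normalization and log2. Probes with a detection p under 0.01 on at least 3 arrays were kept (15361), and the brightest was taken for each gene. 34885 probes had 1 gene in the platform's probe table, 18 several and 10378 none. limma (lmFit, then eBayes) estimated the 5 group means from the 15 arrays at once, on 10 residual degrees of freedom (13.1 after moderation). Its p-values, which are 2-sided, were adjusted by Benjamini-Hochberg over 8976 genes in each of 6 comparisons. An exact permutation test on groups of 3 has 0.1 as its smallest p and was not used. The fit was tested on simulated data.

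Every member with a detected probe was accounted for. Values on each array were given for the members with the 10 smallest adjusted p in the chronic comparison, Ccnd1, Mcm5, Rrm2, Cdkn1a and members called in another comparison, and up to 4 called genes of each other list were named for each comparison. The members and lists were chosen with earlier results of these data known. The processing was varied in its background correction, scaling, filter, probe summary, moderation, array weights and threshold, by fits on fewer arrays or without each array in turn, and with the replicate number as a block.

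Residuals of arrays with the same replicate number correlated with lowest r of -0.281, -0.198, 0.00529 and -0.0451 in the acute, chronic, withdrawal and withdrawal against chronic comparisons, which were not taken as paired. Between the baselines r was 0.126, 0.250 and 0.195, so the numbers may pair those arrays, and the blocked values stand beside that result. The highest correlation between 2 arrays over genes was 0.992.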

Additional observations from a re-analysis of the deposited data

Results flagged for a closer look

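The chronic and the acute effect of T3 differed in 9 members, by the test of the difference itself. The difference, chronic effect minus acute effect on the log2 scale, was 2.41 for Ccnd1, 1.84 for Mcm2, 1.64 for Mcm4, 3.18 for Mcm5, 2.30 for Mcm6, 1.19 for Pold1, 3.34 for Uhrf1 and 1.32 for Bub1b, and -1.81 for Mcm10. Mcm2, Uhrf1 and Bub1b were detected on no baseline B array, so their values give no exact size. The calls of Mcm2, Mcm4, Mcm5, Mcm6, Mcm10 and Uhrf1 held without each of the 12 arrays in turn. Ccnd1 lost its call without 6 of the 12 arrays (adjusted p 0.0505 to 0.0713), and Pold1 and Bub1b without 10 each (adjusted p 0.0576 to 0.115 and 0.0570 to 0.106). Of 14 other alternatives, Bub1b lost its call under 8, Pold1 under 5 and Ccnd1 under 0. The dimmer probe of Bub1b gave 0.52 and did not pass. Mcm6 and Pold1 also differed between the untreated groups.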

How the results depend on the processing

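No result changed sign while called. Counts of calls in this section are of the members alone, without the share over all genes of the same fit. Of the calls, 10 of 16 in the chronic comparison, 8 of 14 for withdrawal against chronic T3 and 6 of 9 in the difference of effects held without each array in turn, and none did in the acute or baseline comparison. Leaving out 1 array gave 0 to 1 calls for acute T3, 10 to 20 for chronic T3, 0 for withdrawal, 8 to 17 for withdrawal against chronic T3, 6 to 16 for the difference of effects and 0 to 5 for the baselines. In the same order the S phase medians ran from -0.355 to -0.195, 0.302 to 0.63, -0.0804 to -0.0153, -0.726 to -0.328, 0.199 to 0.642 and -0.0729 to 0.000822. The mitosis medians ran from -0.821 to -0.313, 0.911 to 1.71, -0.138 to 0.206, -1.61 to -0.749, 1.36 to 2.36 and -0.75 to -0.572.

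For acute T3 the count was 0 with the mean of detected probes or array weights and 2 at a threshold of 0.10, and the S phase median was -0.196 with normexp, -0.171 with no background correction or the authors' values and -0.151 with no filter. With only the arrays compared the counts were 10 for chronic T3, 8 for withdrawal against chronic T3 and 1 for the baselines. For withdrawal against chronic T3 the S phase and mitosis medians were -0.401 and -0.735 with normexp, -0.367 and -0.637 with no background correction or the authors' values, and -0.657 and -1.51 with median scaling, and the S phase median was -0.432 with no filter. Median scaling gave a mitosis median of -0.163 for withdrawal against baseline B. The difference of effects had 14 calls at a threshold of 0.10. The baselines had 5 calls with no background correction, the authors' values or a threshold of 0.10, 1 with no filter and 0 with array weights. Their mitosis median was -0.338, -0.28 and -0.432 with normexp, no background correction (or the authors' values) and no filter, and their S phase median -0.0895 with a filter at 6 arrays.

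Chosen after seeing the data, leaving out chronic T3 replicates 2 and 3 gave 18 calls and an S phase median of 0.873 in the difference of effects, and medians of -0.855 and -1.97 for S phase and mitosis genes in withdrawal against chronic T3. That fit has a single chronic T3 array, the one where all 15 genes that rose were highest, and assumes that it varies like the other groups. The cause of these shifts was not tested. With the replicate number as a block the counts were 1, 13, 0, 13, 8 and 2 in the order above, and 0 for the baselines in a fit of the 6 baseline arrays. Signal over background limits the mitosis genes, of which none was detected on all arrays.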
